A study of Rattus norvegicus with 9 samples.

Results

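Csf1, the gene of macrophage colony-stimulating factor, was studied with 7 other genes of myeloid growth factors and their receptors: Il34, Csf2, Kitlg, Csf1r, Csf2ra, Csf2rb and Kit. The members were chosen by gene symbol. A probeset counted where the platform annotation gave it a single symbol, and the brightest probeset stood for a gene. Of the 8 genes, 7 had a probeset, each exactly 1, among 18166 genes with a single-symbol probeset. Csf2ra, the alpha chain of the receptor for granulocyte-macrophage colony-stimulating factor (GM-CSF), had no single-symbol probeset in that annotation and was not analysed here. All 7 measured genes passed the filter for dim genes, a mean log2 value of at least 4.16, as did 14014 genes in all.

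The values came from 9 Affymetrix arrays of hepatic macrophages, each from a separate male Sprague-Dawley rat. Sham surgery freed the portal vein and placed no ligature (3 rats). Partial portal vein ligation (PPVL), a model of portal hypertension, narrowed the vein, and cells were collected 3 days (3 rats) or 10 days (3 rats) later. The labels give no day for the sham rats, no age for any rat and no further treatment. Time since surgery and the presence of a ligature therefore cannot be told apart in a comparison with sham. The series follows the profile over time after ligation, so both days were compared with sham and with each other.

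As background, CSF1 and interleukin 34 (IL-34) are alternative ligands of CSF1R, the receptor kinase on which the survival, proliferation and differentiation of most tissue macrophages depend, Kupffer cells of the liver included. GM-CSF binds a receptor of a specific alpha chain and the common beta chain encoded by Csf2rb, which also serves interleukins of the same family. KIT is a receptor kinase related to CSF1R, binds stem cell factor (the product of Kitlg), and is known from haematopoietic progenitors, mast cells and some innate lymphoid cells.

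Array medians lay between 5.21 and 5.26, and correlations between arrays between 0.987 and 0.993, on the log2 scale of robust multi-array average (RMA) values. Markers of a list did not all lie at one level. Of the general macrophage markers, Lyz2 and Cd68 were well above the filter, with mean log2 values of 12.85 and 11.17. Mertk (4.77) and Cd163 (4.50) of that list lay near it. Of the Kupffer cell markers, Clec4f (5.03), Cd163, Timd4 (4.40) and Vsig4 (4.26) lay near the filter. Others of the Kupffer cell list were higher, among them Adgre1 (8.55), Nr1h3 (7.55) and Slc40a1 (7.09). Lymphocyte markers were well above the filter: the mean log2 value over 12 T cell genes was 9.38 to 9.96 on the 9 arrays, and that over 11 natural killer and innate lymphoid genes was 9.42 to 9.97. The preparation therefore held signal from lymphocytes beside that from macrophages. Signals of different probesets are not comparable as amounts of RNA, so these values are set only against the filter. With 3 arrays per group, the SE of a difference had a median of 0.0861 over all genes. Below, values are log2 RMA values and differences are log2 differences ± SE (standard error, n = 3 rats per group). Adjusted p-values come from limma's moderated test after Benjamini-Hochberg correction for the 14014 genes, and a gene was called at 0.05. An exact permutation test of 3 against 3 rats cannot go below p = 0.1. Intervals are 95% intervals of that fit for a single gene.

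Among the ligand genes, Csf1 rose at 3 days and did not pass the test at 10 days, and Il34, Csf2 and Kitlg passed it at neither day. Csf1 (probeset 17750384) read 9.03, 9.79 and 9.91 in sham rats 1, 2 and 3. At 3 days it read 11.21, 11.17 and 10.75, and at 10 days 10.07, 10.05 and 9.50. All 3 rats at 3 days lay above every sham and every 10-day rat, while the sham and 10-day groups overlapped, and sham rat 1 was the lowest of the 9. The group means were 9.58 ± 0.48 (SD, n = 3) in sham, 11.04 ± 0.26 at 3 days and 9.87 ± 0.32 at 10 days. The rise at 3 days was 1.46 ± 0.24, a 2.76-fold increase (interval 1.90 to 4.01-fold, adjusted p = 0.0136), in 3 of 3 rats. This call was not reached without 3-day rat 2 (1.40, adjusted p = 0.0553). It was also not reached with only the 3-day and sham arrays in the fit (adjusted p = 0.0571) or when every one of the 36685 probesets was tested (adjusted p = 0.0700).

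At 10 days Csf1 differed from sham by 0.30 ± 0.24 (interval -0.24 to 0.84, adjusted p = 0.597). That value moved with single rats, and was 0.022 without sham rat 1 and 0.48 without 10-day rat 3, the lowest and highest of 9 fits. From 3 to 10 days it differed by -1.17 ± 0.24 (interval -1.71 to -0.63), with an unadjusted p of 0.000763 and an adjusted p of 0.178 by limma. The groups of that comparison did not overlap, yet the difference did not pass over all genes, and in 9 fits without 1 array its adjusted p was 0.0781 to 0.350. The within-group standard deviation of Csf1 pooled over the 3 groups was 0.36, above that of 98.9% of the genes tested. Values of this gene thus varied more between rats of a group than those of most genes.

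Il34 (probeset 17733480), whose product shares CSF1R with CSF1, gave values close to the filter. They were 4.88, 4.88 and 4.74 in sham, 4.92, 4.86 and 4.70 at 3 days and 4.88, 5.16 and 4.99 at 10 days. The sham and 3-day groups overlapped. Each 10-day rat was above the sham rats, the lowest of them by a margin smaller than 0.01 (4.884 against 4.878). The differences were -0.0072 ± 0.089 at 3 days (interval -0.21 to 0.19) and 0.18 ± 0.089 at 10 days (interval -0.020 to 0.38, adjusted p = 0.360). The interval at 3 days reached 1.14-fold up. So close to the filter, background limits what can be seen, so this interval does not bound a change of Il34 RNA.

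Csf2 (probeset 17656164) encodes GM-CSF, a cytokine that activated T cells and innate lymphoid cells are known to make. It read 9.51, 9.22 and 9.14 in sham, 8.87, 9.86 and 9.19 at 3 days and 9.32, 9.25 and 9.29 at 10 days. The 3-day rats spanned the range of all 9 arrays and overlapped both other groups, and the 10-day rats lay within 0.068 of each other. Group SDs were 0.19 in sham, 0.51 at 3 days and 0.034 at 10 days. The difference from sham was 0.018 ± 0.21 at 3 days (interval -0.45 to 0.48) and -0.0015 ± 0.21 at 10 days (interval -0.47 to 0.46), so changes of up to about 1.40-fold up or 0.723-fold down were within the intervals.

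Kitlg (probeset 17827861), the stem cell factor gene, lay close to the filter like Il34. Its values were 4.73, 4.73 and 5.13 in sham, 4.27, 4.67 and 4.73 at 3 days and 4.55, 5.39 and 4.73 at 10 days. Every pair of groups overlapped, and 10-day rat 2 was the highest of the 9 arrays. The differences were -0.31 ± 0.21 at 3 days (adjusted p = 0.566) and 0.028 ± 0.21 at 10 days (adjusted p = 0.968).

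**Figure D1:**
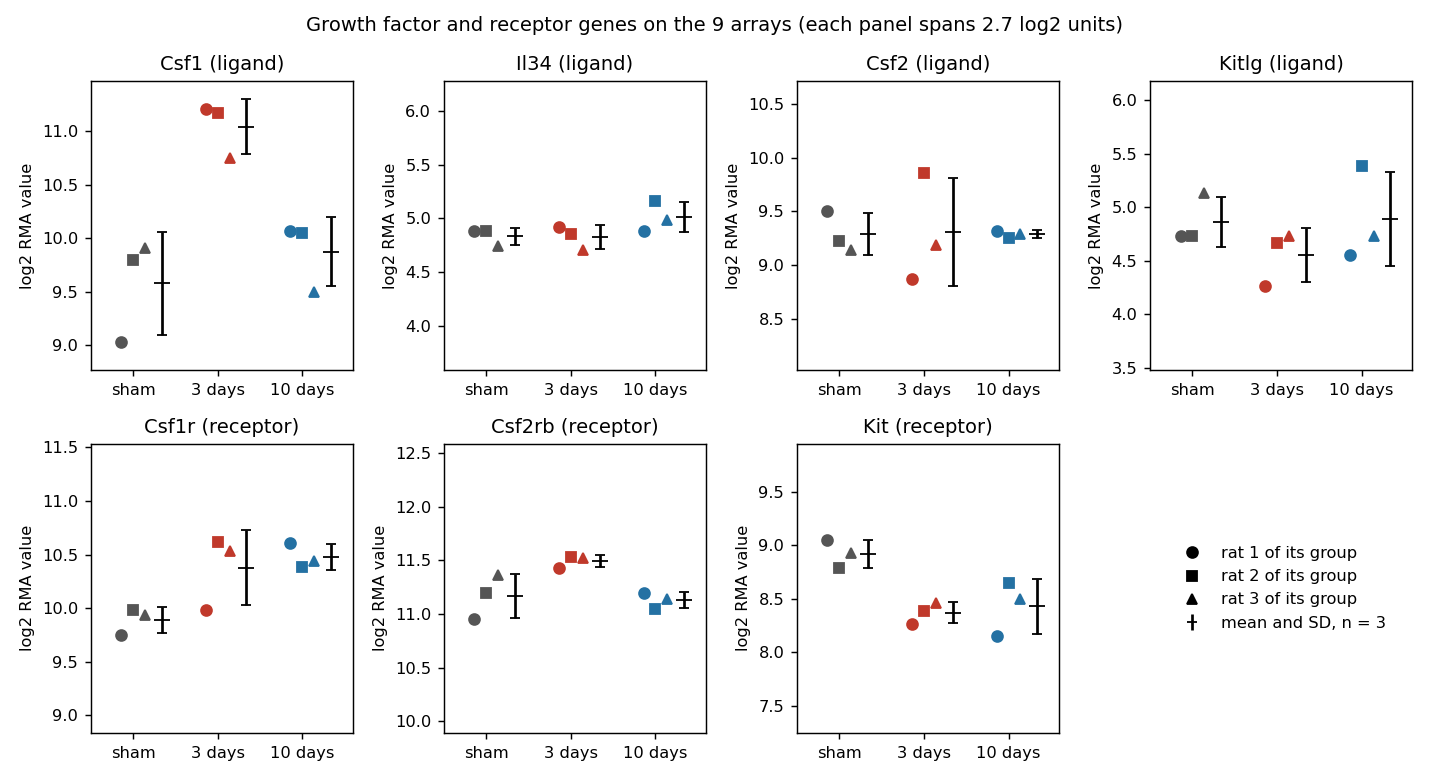
Log2 RMA value (vertical axis) of the 7 measured genes in sham, 3-day and 10-day rats (horizontal axis). Symbols are single rats, and the bar beside them is the group mean with its SD (n = 3). The 3 Csf1 values at 3 days, 10.75 to 11.21, lie above the other 6, and the 3 Kit values in sham, 8.79 to 9.05, lie above the other 6.

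Among the receptor genes, Kit fell at 3 days. Csf1r and Csf2rb passed the test at neither day, and all 10-day rats for Csf1r and all 3-day rats for Csf2rb lay above the sham rats. Csf1r (probeset 17723614), the CSF1 and IL-34 receptor, read 9.75, 9.99 and 9.94 in sham, 9.98, 10.62 and 10.53 at 3 days and 10.61, 10.38 and 10.44 at 10 days. The 10-day rats all lay above the sham rats. At 3 days, rat 1 lay within the sham range and rats 2 and 3 above it. The difference from sham was 0.49 ± 0.15 at 3 days (adjusted p = 0.143) and 0.59 ± 0.15 at 10 days (interval 1.18 to 1.91-fold, adjusted p = 0.104). Without 3-day rat 1, which also enters the spread used at 10 days, these were 0.69 with adjusted p = 0.0130 and 0.59 with adjusted p = 0.0382. That was 1 of 9 fits without 1 array, and the others gave no call of Csf1r at either day. Adjusted p ran up to 0.372 at 3 days and 0.265 at 10 days. Between the days Csf1r differed by 0.10 ± 0.15 (interval -0.24 to 0.44). The Kupffer cell list, 14 of 14 genes tested, averaged 5.68 to 5.74 in sham, 5.98 to 6.53 at 3 days and 5.95 to 6.00 at 10 days, and its part in the Csf1r differences was not tested. Over the same 9 arrays, then, Csf1 was raised over sham at 3 days, while the receptor gene had intervals above 0 at both days and no call.

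Csf2rb (probeset 17830385), the common beta chain, read 10.95, 11.19 and 11.36 in sham, 11.43, 11.53 and 11.52 at 3 days and 11.19, 11.05 and 11.14 at 10 days. The 3-day rats lay above all others. The difference was 0.33 ± 0.098 at 3 days (1.25-fold, unadjusted p = 0.00786 by limma, adjusted p = 0.125) and -0.040 ± 0.098 at 10 days (adjusted p = 0.890). From 3 to 10 days it was -0.37 ± 0.098 (adjusted p = 0.253). Like those of Csf1, the 3-day values lay apart from both other groups, but none of these differences passed over all genes.

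Kit (probeset 17694060) was highest in sham. It read 9.05, 8.79 and 8.92 in sham, 8.26, 8.39 and 8.46 at 3 days and 8.15, 8.64 and 8.49 at 10 days. All sham rats lay above all PPVL rats, and the PPVL groups overlapped. The means were 8.92 ± 0.13 (SD, n = 3), 8.37 ± 0.098 and 8.43 ± 0.25. At 3 days Kit fell by 0.55 ± 0.12 to 0.683-fold of sham (interval 0.564 to 0.828-fold, adjusted p = 0.0486), in 3 of 3 rats. That call stood at the threshold and was reached in 2 of the 9 fits without 1 array, where adjusted p ran from 0.0220 without 10-day rat 1 to 0.153 without sham rat 1. At 10 days the difference was -0.49 ± 0.12 with adjusted p = 0.0948, and between the days it was 0.058 ± 0.12 (interval -0.22 to 0.33). In these bulk samples fewer cells of a type and less RNA per cell cannot be told apart.

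Markers of cells that carry KIT were measured beside it. Of 12 mast cell and basophil genes, 7 lay below the filter, among them Cpa3, Fcer1a and Ms4a2 with mean values of 3.54, 3.66 and 3.72, and 2 had no probeset. The 3 remaining genes averaged 5.62 to 6.09 on the sham arrays, 5.66 to 6.27 at 3 days and 5.58 to 5.86 at 10 days. Of 9 haematopoietic progenitor genes, Kit included, 3 had no probeset and Cd34 lay below the filter, at 3.61. The 4 tested genes other than Kit (Flt3, Gata2, Meis1 and Tal1) averaged 6.02 to 6.18 in sham, 5.65 to 5.80 at 3 days and 5.98 to 6.04 at 10 days. The 3-day arrays lay below all sham arrays for this mean, with a difference of -0.38 between the group means. Flt3, which is also on the dendritic cell list, had the largest fall (-1.12) and was called lower at 3 days. Differences of the 5 tested progenitor genes, Kit included, ran from there up to 0.084, so they did not all fall. The T cell list, 12 of 12 genes tested, averaged 9.72 to 9.96 in sham, 9.42 to 9.72 at 3 days and 9.38 to 9.56 at 10 days. Of the natural killer and innate lymphoid list, 11 of 13 genes were tested, which averaged 9.81 to 9.97, 9.42 to 9.88 and 9.47 to 9.59. Differences of these means from sham were -0.25 and -0.17 at 3 days and -0.39 and -0.37 at 10 days. The part of progenitor, mast cell and lymphocyte markers in the fall of Kit was not tested.

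Promoter sequence is shown for Kit, the receptor gene whose call was a fall, for Kitlg, its ligand gene, and for Csf2, a ligand gene without a call. RefSeq windows of 250 bases before to 50 after a gene's start (build GRCr8) matched 5 of the 8 genes, and the bases outside the annotated gene are printed, 5′ to 3′ on the gene's strand. Capitals mark TATAA and GGGCGG, searched on both strands. The windows are chr14:32978896-32979062 (minus strand) for Kit, chr7:36782410-36782620 (plus strand) for Kitlg and chr10:38889674-38889923 (minus strand) for Csf2.
Kit: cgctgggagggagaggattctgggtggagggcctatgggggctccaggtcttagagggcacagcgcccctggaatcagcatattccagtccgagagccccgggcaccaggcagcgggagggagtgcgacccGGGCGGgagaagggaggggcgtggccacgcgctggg
Kitlg: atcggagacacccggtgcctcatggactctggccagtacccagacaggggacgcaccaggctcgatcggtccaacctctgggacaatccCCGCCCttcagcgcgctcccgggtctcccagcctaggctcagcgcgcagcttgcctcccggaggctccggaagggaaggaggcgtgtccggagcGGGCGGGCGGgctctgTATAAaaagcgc
Csf2: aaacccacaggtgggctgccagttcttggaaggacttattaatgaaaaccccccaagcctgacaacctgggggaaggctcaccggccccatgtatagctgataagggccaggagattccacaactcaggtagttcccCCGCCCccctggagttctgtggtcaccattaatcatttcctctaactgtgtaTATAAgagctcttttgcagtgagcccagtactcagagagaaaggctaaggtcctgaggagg

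The Kit window of 167 bases had a GC content of 70.1%, no TATAA and 1 GGGCGG. The Kitlg window of 211 bases had 67.8% GC, 1 TATAA and 3 GGGCGG, of which 2 overlap. The Csf2 window of 250 bases had 52.0% GC with 1 of each. Over 33469 rat windows cut to the same lengths, median GC was 50.3%, 50.7% and 51.2%. GGGCGG was present in 18.9%, 26.0% and 30.5% of them, and TATAA in 16.8%, 20.4% and 24.0%. These cuts were counted from the upstream end of a window and not from each gene's boundary, where the printed Kit and Kitlg sequences end. The shares can therefore stem from another position relative to the gene. The arrays measured transcripts and carry no reading of these windows.

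At 3 days 2 of the 7 measured genes passed the test, 1 up (Csf1) and 1 down (Kit), where 2.86% of all genes tested passed, 2.15% up and 0.714% down. With 7 genes this difference in shares rests on 2 calls, and the genes had been chosen with earlier results known. At 10 days none of the 7 passed with limma, and 2 had an unadjusted p under 0.05 (Csf1r and Kit), where 0.735% of all genes passed (0.492% up and 0.243% down) and 16.2% had an unadjusted p under 0.05. Between the days none passed, and 2 had an unadjusted p under 0.05 (Csf1 and Csf2rb), where 0.0714% of all genes passed (0.0214% up and 0.05% down) and 11.3% had an unadjusted p under 0.05. Groups did not overlap for 3 of 7 genes at 3 days (Csf1, Csf2rb and Kit), against 18.8% of all genes. They did not overlap for 3 of 7 at 10 days (Csf1r, Il34 and Kit), against 21% of all genes. Between the days they did not overlap for 2 of 7 (Csf1 and Csf2rb), against 14.6%. The median difference over the 7 genes was 0.018 at 3 days, 0.028 at 10 days and 0.058 between the days, and over all genes it was -0.014, -0.00040 and 0.0053. These medians run over genes that differ in both directions. Both comparisons with sham share the 3 sham arrays.

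**Figure D2:**
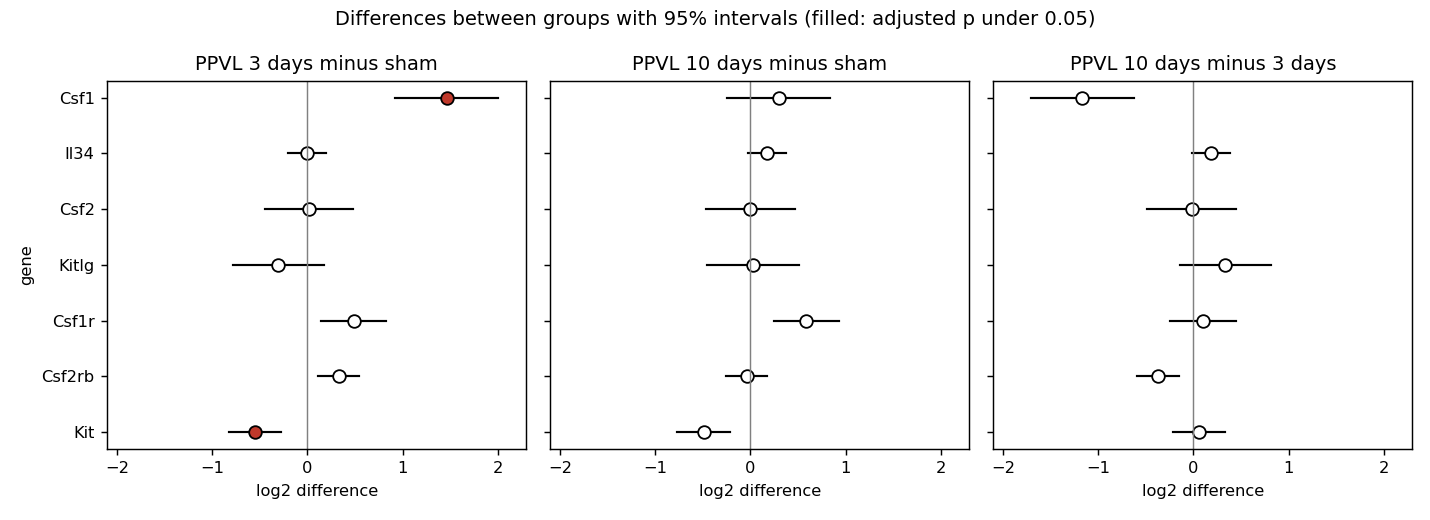
Log2 difference (horizontal axis) of each gene (vertical axis) in the 3 comparisons, with 95% intervals of single genes. Filled points have an adjusted p under 0.05 and are Csf1 (1.46) and Kit (-0.55) at 3 days against sham. No point is filled in the other 2 panels.

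Over the 9 arrays the members varied together in part. Csf1 and Csf2rb had a Pearson correlation of 0.86, Csf1 and Csf1r one of 0.42, and Csf1r and Kit one of -0.72. Kit and Kitlg had a correlation of 0.53, and Csf2 had correlations between -0.063 and 0.36 with every other member. The points share arrays and fall into 3 groups, so these values describe the arrays only. Sham rat 1 had the lowest Csf1, Csf1r and Csf2rb and the highest Kit of the 9 arrays. On that array the neutrophil marker mean was 7.67, against 8.84 and 8.92 on the other sham arrays. Its recruited monocyte mean (9.64 against 9.88 and 9.93) and general macrophage mean (8.57 against 8.73 and 8.73) were also the lowest in sham. Its T cell mean was the highest in sham (9.96 against 9.72 and 9.86). The part of these markers in its values was not tested. Without sham rat 1 the rise of Csf1 at 3 days was 1.19 with adjusted p = 0.0219.

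Genes whose values were most like those of a member were taken by their correlation with it over the 9 arrays. For Csf1 they were Atox1, a copper chaperone (r = 0.99), Serpinb1a, an inhibitor of neutrophil proteases (0.98), and Asl, argininosuccinate lyase of the urea cycle and arginine synthesis (0.98). Being chosen for their likeness to Csf1 on these arrays, they follow its pattern by construction, and their differences are given without a test. From sham to 3 days they were 0.27 for Atox1, 2.07 for Serpinb1a and 0.39 for Asl.

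For Csf1r the most similar genes were Lipa, the lysosomal acid lipase (r = 0.99), Tspan2, a tetraspanin (0.98), and Nedd4l, a ubiquitin ligase (0.97). For Kit they were Snx14, a sorting nexin (0.97), Gpat4, a glycerol-phosphate acyltransferase (0.95), and the transcription factor gene Deaf1 (0.95). The 3-day differences of these last genes from sham, fixed in direction by the same choice, were -0.32 for Snx14, -0.22 for Gpat4 and -0.24 for Deaf1. For Csf2rb they were Aldh2, an aldehyde dehydrogenase, Mboat7 and Trpv2 (0.95, 0.94 and 0.94). For Csf2 they were Sla, Rufy4 and Tpbgl (0.92, 0.92 and 0.90). For the low genes Il34 and Kitlg they were led by Fam170b (0.95) and Vcam1 (0.91).

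**Figure D3:**
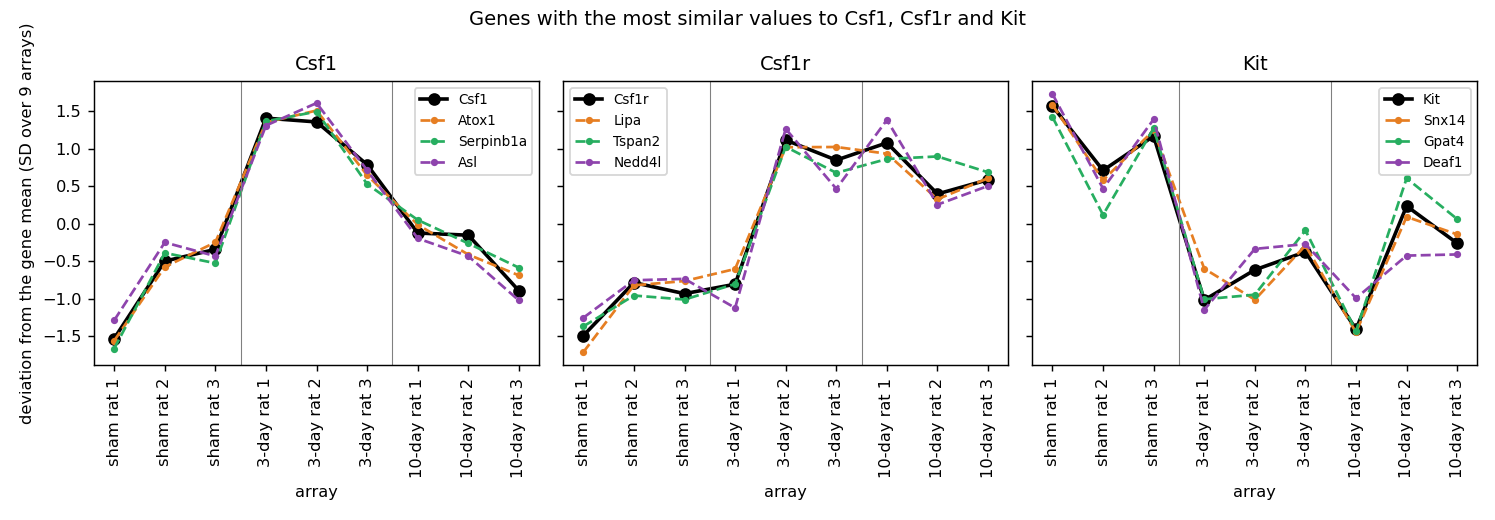
Deviation of each array from the gene's mean, in SDs over the 9 arrays (vertical axis), for Csf1, Csf1r and Kit (solid) and the 3 genes most correlated with each (dashed), over the 9 arrays (horizontal axis). Csf1 and its similar genes peak at 3 days, Csf1r and its similar genes are low in sham and in 3-day rat 1, and Kit and its similar genes are highest in sham rat 1.

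Related genes were read from 6 lists, all chosen with earlier results of these data known. Of all genes tested, 2.15% were called higher and 0.714% lower at 3 days, and 0.492% and 0.243% at 10 days. In the list of other haematopoietic growth factors and receptors, Csf3r, the granulocyte colony-stimulating factor receptor, rose by 1.04 ± 0.21 at 3 days (adjusted p = 0.0326). Flt3, a receptor kinase of the same family as CSF1R and KIT and known from dendritic cells and their progenitors, fell by 1.12 ± 0.18 (adjusted p = 0.0116). These were 1 up and 1 down of 11 tested genes, with 9 not past the test, among them Il7r (-0.22 ± 0.10) and Epo (-0.15 ± 0.062). Csf3r read 8.01, 8.44 and 8.70 in sham, 9.39, 9.77 and 9.11 at 3 days and 8.92, 8.90 and 8.48 at 10 days. Flt3 read 8.59, 9.26 and 9.28 in sham, 7.68, 8.05 and 8.04 at 3 days and 8.44, 8.49 and 8.62 at 10 days. For both genes the 3-day values lay apart from sham. The call of Csf3r was reached in 3 of the 9 fits without 1 array (adjusted p up to 0.0978) and that of Flt3 in 9. Under 9 other processing settings Csf3r passed in 6 (adjusted p up to 0.131). Flt3 did not pass with all probesets tested or with only the 2 groups in the fit (adjusted p up to 0.0678). Over the 9 neutrophil genes tested, of which Csf3r is 1, the mean was 7.67 to 8.92 in sham and 8.72 to 9.43 at 3 days, and its part in the rise of Csf3r was not tested. Over 7 dendritic cell genes, Flt3 among them, the mean was 7.84 to 7.86 in sham and 7.47 to 7.58 at 3 days, and its part in the fall of Flt3 was not tested. None of the 11 passed at 10 days, where Csf3, the ligand gene of Csf3r, differed by -0.77 ± 0.30 (adjusted p = 0.239).

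In the list of further binding partners and sheddases, 1 of 5 tested genes rose at 3 days, where 2.15% of all genes did. Sdc1, which encodes syndecan-1, a proteoglycan that also binds IL-34, read 7.76, 8.16 and 8.27 in sham, 8.92, 8.76 and 8.86 at 3 days and 8.61, 8.49 and 8.60 at 10 days. It rose by 0.78 ± 0.12 at 3 days (1.72-fold, adjusted p = 0.0103), and its difference at 10 days was 0.50 ± 0.12 (adjusted p = 0.0825). Every PPVL rat lay above every sham rat. The 3-day call was not reached with all probesets tested or with only the 2 groups in the fit (adjusted p up to 0.0591). Adam17, a protease that sheds CSF1R from the cell surface, differed by 0.37 ± 0.13 at 3 days (adjusted p = 0.192), and Mmp9, a gelatinase known to release stem cell factor, by -0.38 ± 0.078 at 10 days (adjusted p = 0.0624).

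The list of CSF1 response and macrophage differentiation genes had 4 rises and 1 fall among 15 tested genes at 3 days. Over all genes tested, 2.15% were called higher and 0.714% lower at that day, and the list was chosen with earlier results known. Mitf, a transcription factor of osteoclasts and other myeloid cells, rose by 0.72 ± 0.088 (adjusted p = 0.00388), and Egr2, a transcription factor of macrophage activation, by 0.66 ± 0.10 (adjusted p = 0.0115). Plau, the urokinase gene, rose by 0.64 ± 0.14 (adjusted p = 0.0489), and Maf, a transcription factor of macrophage differentiation that was named after its values were seen, by 0.57 ± 0.12 (adjusted p = 0.0346). Ccnd1, the cyclin D1 gene that CSF1 is known to induce in cultured macrophages, fell by 1.0 ± 0.12 (adjusted p = 0.00392). Mitf, Egr2 and Ccnd1 kept their calls in each of 9 fits without 1 array, Maf in 4 and Plau in 1 (adjusted p up to 0.113 and 0.114). Under 9 other processing settings Maf passed in 6 and Plau in 5 (adjusted p up to 0.136 and 0.173). Egr2 did not pass with all probesets tested or with only the 2 groups in the fit (adjusted p up to 0.0603). At 10 days Maf (0.67 ± 0.12) and Egr2 (0.61 ± 0.10) rose, both with adjusted p = 0.0449, where 0.492% of all genes were called higher. These calls held in 2 and 3 of the 9 fits without 1 array (adjusted p up to 0.153 and 0.150). They held in 5 and 6 of the 9 other settings (adjusted p up to 0.133 and 0.129). The median difference of the list was 0.12 at 3 days and 0.065 at 10 days, against -0.014 and -0.00040 over all genes. None of the 15 passed between the days. Over the same arrays the recruited monocyte markers, 8 of 10 tested, averaged 9.64 to 9.93 in sham, 10.48 to 10.62 at 3 days and 10.05 to 10.17 at 10 days, and the general macrophage markers other than Csf1r, 8 genes, averaged 8.57 to 8.73, 9.11 to 9.13 and 8.87 to 9.07. Both ranges were higher in each PPVL group than in sham, as was Csf1 at 3 days. The 9 neutrophil genes averaged 7.67 to 8.92 in sham, 8.72 to 9.43 at 3 days and 8.18 to 8.82 at 10 days. The differences of this mean from sham were 0.66 and 0.084, with ranges that overlapped sham at both days. In each group the array with the lowest neutrophil mean also had the lowest Csf1 (sham rat 1, 3-day rat 3 and 10-day rat 3). The part of these marker lists in the results for Csf1, Csf1r and the CSF1 response list was not tested.

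Among 10 genes of the GM-CSF response, Car4 and Fabp4, which are known from alveolar macrophages, rose at 3 days by 2.18 ± 0.28 and 1.12 ± 0.18 (adjusted p = 0.00449 and 0.0118). Of all genes tested, 2.15% were called higher at 3 days, and this list too was chosen with earlier results known. Fabp4 did not pass with all probesets tested (adjusted p = 0.0634). The other 8 did not pass, with Itgax, the CD11c gene, at 0.42 ± 0.12 (adjusted p = 0.121) and the chemokine gene Ccl22 at -0.57 ± 0.20 (adjusted p = 0.195). Pparg, the regulator of alveolar macrophage identity that GM-CSF is known to induce, differed by 0.17 ± 0.21 (adjusted p = 0.774). None of the 10 passed at 10 days, where Fabp4 differed by 0.84 ± 0.18 (adjusted p = 0.0674).

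The signalling steps below the receptors were read from the remaining lists, beside shares of all genes called of 2.86% at 3 days and 0.735% at 10 days. Of 16 tested genes of proximal CSF1R and KIT signalling, none passed at 3 days with limma, and the nearest was the kinase gene Src (-0.51 ± 0.12, adjusted p = 0.0535). At 10 days 1 of 16 fell, Pik3cd, a catalytic subunit of phosphoinositide kinase (-0.48 ± 0.080, adjusted p = 0.0449). Its call was reached in 3 of 9 fits without 1 array (adjusted p up to 0.150) and in 5 of 9 other settings (up to 0.124). Lyn, a kinase of the Src family, differed by 0.37 ± 0.086 at 10 days (adjusted p = 0.0780). Of 13 tested genes of JAK-STAT signalling from the common beta chain none passed at either day, and differences lay between -0.20 and 0.28 at 3 days and between -0.28 and 0.15 at 10 days. Among them Socs3, a feedback inhibitor, differed by 0.28 ± 0.097 and Stat5a by -0.17 ± 0.089 at 3 days. No gene of the 6 lists passed between the days, where Csf3 (-1.14 ± 0.30) and Car4 (-1.30 ± 0.28) had adjusted p of 0.242 and 0.194.

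**Figure D4:**
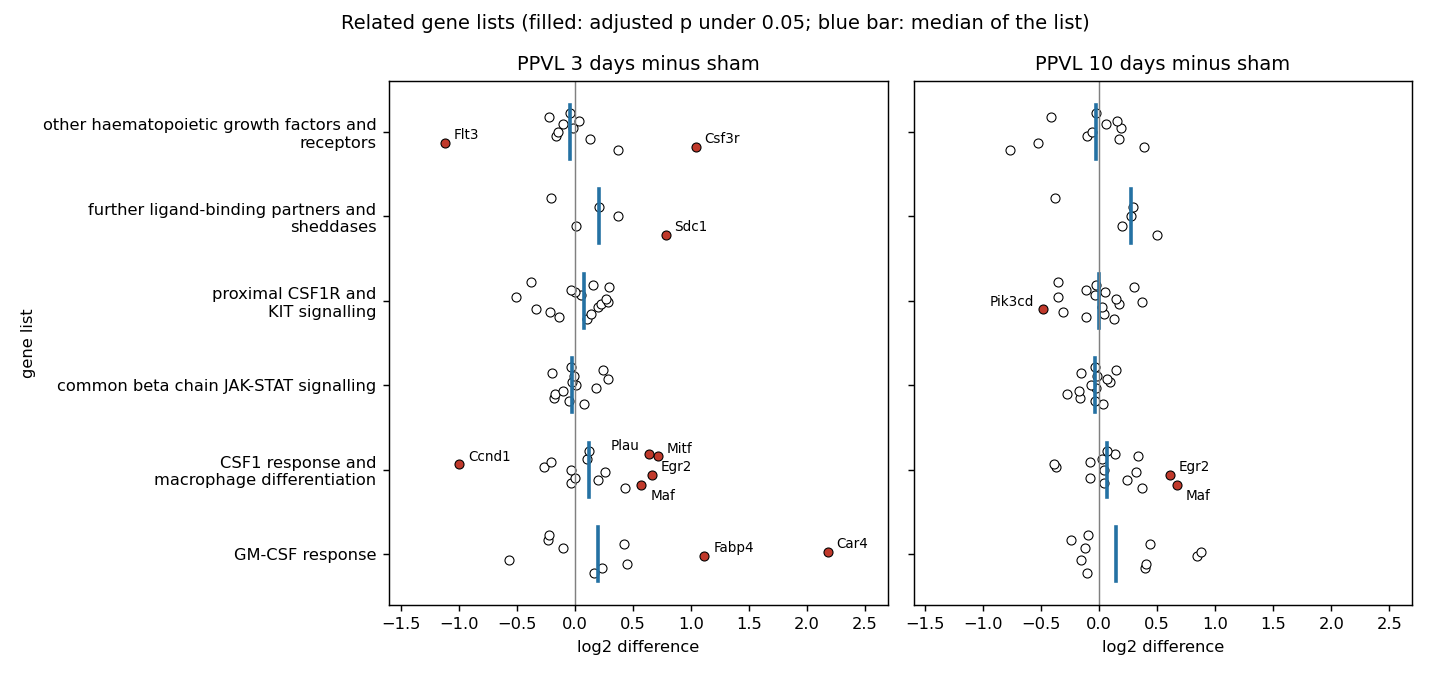
Log2 difference (horizontal axis) of each tested gene of the 6 related lists (vertical axis) at 3 days (left) and 10 days (right) against sham. Filled points have an adjusted p under 0.05 and blue bars are list medians. At 3 days 10 points are filled, from Flt3 (-1.12) to Car4 (2.18), and at 10 days 3 are filled (Pik3cd, Egr2 and Maf).

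The calls of Csf1 and Kit at 3 days were recomputed without each array in turn. Csf1 had an adjusted p under 0.05 in 8 of 9 fits without 1 array, and Kit in 2 of 9. Over all 9 fits the difference was 1.19 to 1.63 for Csf1 and -0.62 to -0.49 for Kit. Both kept their direction in the 9 fits, and both lost their call in at least 1 of them.

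**Figure D5:**
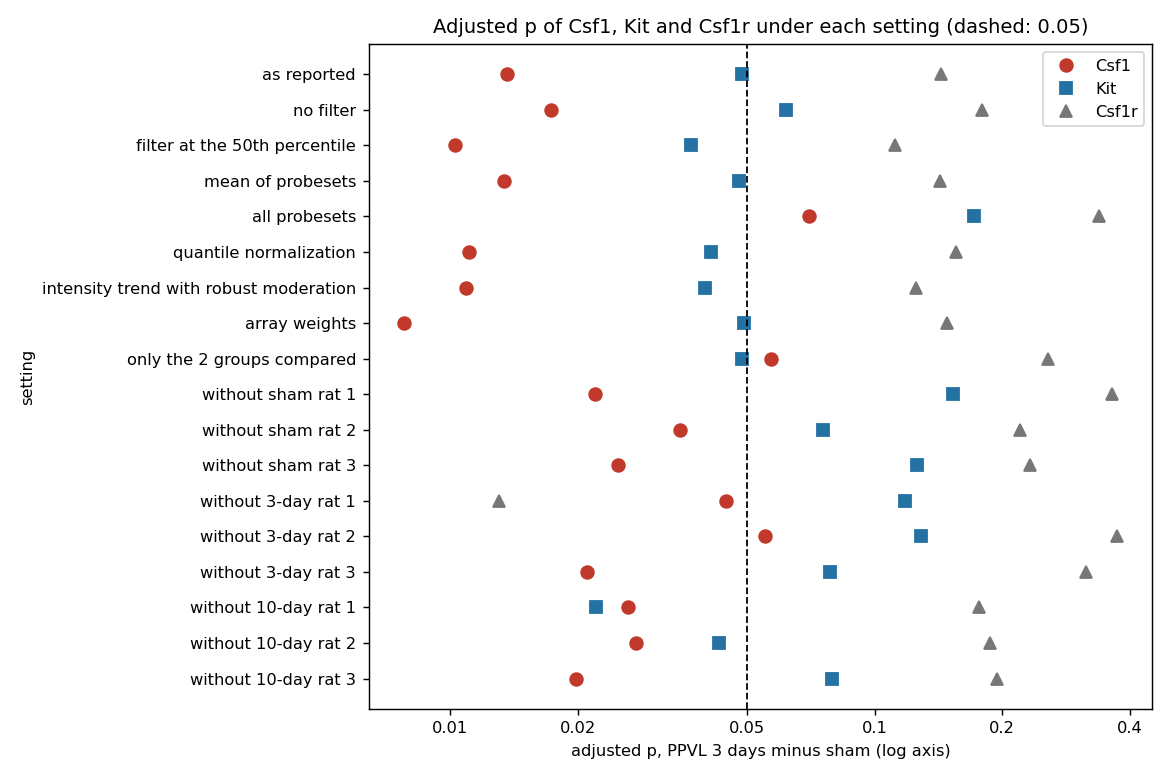
Adjusted p at 3 days against sham (horizontal log axis) of Csf1, Kit and Csf1r under the reported fit, 8 alternatives and 9 fits without 1 array (vertical axis). The fit with a replicate block is not drawn. The dashed line is the threshold of 0.05. Csf1 lies left of it in all but 3 of the settings drawn (all probesets, only the 2 groups compared, and without 3-day rat 2), Kit lies on both sides, and Csf1r lies left of it without 3-day rat 1 alone.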

How the data were processed

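A single table of log2 values was deposited, with 1 array per rat. Per the submitters' processing notes it was made in Transcriptome Analysis Console by RMA. Versions and genome build are not given in the sources used here. No value was missing, and nothing was normalized again. Probesets were named from the platform annotation (18511 of 36685 with 1 symbol, 575 with several and 17599 with none). The brightest probeset stood for a gene, and genes with a mean under the 30th percentile of all probesets were left out. Group means of all 9 arrays were fitted in R 4.3.3 using limma 3.58.1 (6 residual and 3.59 prior degrees of freedom, 2-sided), without a block. The procedure was also run on simulated data with planted changes and independent noise for each gene. That run held no shifts shared between genes, so it does not bear on how stable the calls are here. Named genes were the members, up to 4 genes per related list and comparison (those past the test by size, then by p) and the 3 genes most correlated with a member. A list gene absent by symbol was looked up through its gene ID in RefSeq (2 found). The alternatives were other filters, probeset rules, quantile normalization, trended and robust moderation, array weights, a replicate block, fits of 2 groups and fits without 1 array. The members and lists were chosen with earlier results of these data known, so no list is independent evidence of its direction.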

Additional observations from a re-analysis of the deposited data

How the results depend on the processing

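Of 372 recomputed member differences, 335 kept their direction and side of the threshold. With all probesets tested, Csf1 at 3 days kept its difference of 1.46 with adjusted p = 0.0700, and Kit its -0.55 with adjusted p = 0.172. With only the 2 groups in the fit Csf1 (1.46) had adjusted p = 0.0571, and with no filter Kit (-0.55) had 0.0618. Members called at 3 days were 1 with no filter, 1 with 2 groups and 0 with all probesets, where 4 had an unadjusted p under 0.05 with limma. Without 1 array they were 0 to 2, and 0 to 1 at 10 days. Same-numbered rats of different groups did not deviate together (correlations -0.095 to 0.084, own number best in 3 of 18 cases). The labels name no pairing by number, and weak correlations cannot exclude a shared day of surgery, isolation or hybridization. With the replicate block 1 member was called at 3 days, Kit (-0.55) having adjusted p = 0.0897, and 264, 0 and 0 genes were called at 3 days, at 10 days and between the days (2163 and 1511 at an unadjusted p under 0.05 in the last cases). Gene counts moved from 401 at 3 days to 107 with all probesets and 134 with 2 groups, and to 190 to 327 without 1 array. At 10 days they moved from 103 to 0 with no filter (2498 at an unadjusted p under 0.05) or all probesets (4285), 173 with the 50th percentile, 170 with quantile normalization, 173 with trend and robust moderation, 197 with array weights, 61 with 2 groups and 0 to 140 without 1 array. Between the days they moved from 10 to 0 with all probesets (3674), 3 with 2 groups and 0 to 18 without 1 array. The cause was not tested. Differences near 0 turned sign. With quantile normalization Csf2 was -0.024 at 3 days, 0.0028 at 10 days and 0.027 between the days, and Il34 0.0042 at 3 days. With array weights Csf2 was 0.042 at 10 days and Il34 0.0055 at 3 days. Without 1 array the ranges were, at 3 days, 1.19 to 1.63 (Csf1), 0.37 to 0.69 (Csf1r), -0.62 to -0.49 (Kit), -0.26 to 0.23 (Csf2) and -0.054 to 0.055 (Il34). At 10 days they were 0.022 to 0.48 (Csf1), 0.52 to 0.64 (Csf1r), 0.10 to 0.24 (Il34), -0.60 to -0.35 (Kit), -0.076 to 0.11 (Csf2), -0.15 to 0.056 (Csf2rb) and -0.22 to 0.20 (Kitlg), and between the days -0.099 to 0.22 (Csf1r), -0.24 to 0.26 (Csf2) and -0.050 to 0.20 (Kit). Il34 and Kitlg lay 0.73 and 0.61 above the filter, where signal over background limits what can be seen.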
